A study of Mus musculus with 6 samples.

Results

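The genes of the bone morphogenetic protein (BMP) pathway described here are the ligands Bmp2, Bmp4, Bmp6 and Bmp7, the receptors Bmpr1a, Bmpr1b and Bmpr2, and the target genes Id1, Id2 and Id3. They were taken from the table by gene symbol and are 10 of the 44788 genes in the count table. RNA-seq was performed on whole ovaries of 3 wild-type mice (WT, numbered 1, 4 and 7) and of 3 mutants, named Bnc1tr/tr and numbered 1, 2 and 3, all of strain C57BL/6 J and 8 weeks old. Bnc1tr/tr mice carry, on both alleles and in all of their cells, a small deletion in Bnc1 that shifts the reading frame and creates an early stop codon. Bnc1 encodes a zinc finger transcription factor of germ cells and keratinocytes, and the study asked how its truncation leads to early ovarian failure. The labels number the ovaries but do not give litters, estrous stage or batches, so a p-value here measures the spread between these ovaries.

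BMPs are secreted signals that bind a complex of type I and type II receptors on the cell surface. The type I receptor then phosphorylates the SMAD transcription factors, which enter the nucleus with a shared partner SMAD and switch on the Id genes. ID proteins bind the E proteins, which are basic helix-loop-helix transcription factors, and keep them off DNA. In the ovary, BMPs pass between oocytes, granulosa cells and theca cells and are known for tuning the response of granulosa cells to gonadotropins.

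Total counts per ovary ranged from 25247770 to 34406296. Levels are given as CPM (counts scaled to a fixed library total) after TMM normalization, which scales each library to the bulk of its genes. Bnc1 itself was at 13.5 ± 0.407 CPM in WT and 14.6 ± 3.72 CPM in Bnc1tr/tr ovaries (mean ± SD, n = 3), and its log2 fold change of 0.12 had an edgeR adjusted p of 0.733, so the level of the truncated transcript does not check the genotype labels. Of all genes tested, 559 were higher and 813 lower in Bnc1tr/tr ovaries, which makes 59.3% of the calls lower. With scaling by library size alone that share was 35.7%. In whole tissue, fewer cells of a type and less RNA per cell cannot be told apart.

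Reference promoters from RefSeq (build GRCm38.p6), covering 300 bases around the start site, matched 7 of the 10 genes, all but Bmp2, Bmp7 and Id1. Those of Bmp6, Id2 and Id3 are shown because Bmp6 was higher in Bnc1tr/tr ovaries and because Id2 and Id3 are paralogs whose fold changes, neither past the threshold, had opposite signs. Capitals mark GGCGCC, a motif that SMAD proteins bind in BMP target genes, and CANNTG, the E box that E proteins bind. The Bmp6 window is chr13:38345466-38345765 on the plus strand, the Id2 window chr12:25096043-25096342 on the minus strand and the Id3 window chr4:136143572-136143871 on the plus strand.
Bmp6: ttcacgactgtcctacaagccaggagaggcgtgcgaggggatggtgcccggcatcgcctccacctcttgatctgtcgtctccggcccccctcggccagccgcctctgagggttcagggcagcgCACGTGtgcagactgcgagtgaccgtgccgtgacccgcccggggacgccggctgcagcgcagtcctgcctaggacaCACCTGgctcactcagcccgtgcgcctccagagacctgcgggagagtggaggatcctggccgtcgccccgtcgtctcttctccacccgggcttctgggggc
Id2: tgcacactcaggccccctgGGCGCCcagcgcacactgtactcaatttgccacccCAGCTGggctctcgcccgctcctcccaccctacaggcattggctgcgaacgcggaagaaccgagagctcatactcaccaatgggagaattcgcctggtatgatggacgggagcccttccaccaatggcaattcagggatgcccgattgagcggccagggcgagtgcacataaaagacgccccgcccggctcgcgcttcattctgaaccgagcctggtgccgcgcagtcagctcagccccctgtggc
Id3: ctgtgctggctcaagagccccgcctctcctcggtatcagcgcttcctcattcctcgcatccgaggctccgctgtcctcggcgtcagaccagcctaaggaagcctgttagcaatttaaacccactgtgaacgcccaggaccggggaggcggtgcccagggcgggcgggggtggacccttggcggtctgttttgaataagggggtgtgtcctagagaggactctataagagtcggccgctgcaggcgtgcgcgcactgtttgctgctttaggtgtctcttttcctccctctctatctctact
The Bmp6 window held 2 E boxes and no GGCGCC. The Id2 window held 1 of each, and the Id3 window held neither. Bases outside the windows were not searched, so a motif absent here may lie elsewhere near the gene. All 3 windows lie within the gene bounds of the GENCODE M21 annotation, whose outermost starts are further upstream. GGCGCC was also in the windows of Bmpr1a and Bmpr2, which did not pass the test between the genotypes. Among all 32851 promoters in the reference, 11.9% held GGCGCC and 72.3% held CANNTG. The homeodomain motifs TAATTA and TAATTG, each read on both strands, were also searched and were in 5.29% and 8.00% of all promoters but in none of these 3. The GC content was 69.3% for Bmp6, 63.3% for Id2 and 60.0% for Id3, against a median of 52.7% over all promoters.

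Per kilobase of exon, the Id genes were the most abundant of the 10 genes in WT ovaries and the ligands, other than Bmp2, the least. Id3 was at 185 ± 22.8 CPM per kb, Id2 at 52.8 ± 7.72 CPM per kb and Id1 at 29.3 ± 1.63 CPM per kb. Bmpr1a followed at 14.8 ± 0.188 CPM per kb, then Bmpr1b at 9.79 ± 1.16, Bmp2 at 9.20 ± 2.23 and Bmpr2 at 8.65 ± 0.289 CPM per kb. Bmp4 at 5.02 ± 0.699 and Bmp6 at 4.92 ± 0.277 CPM per kb came next, and Bmp7 was lowest at 2.89 ± 0.227 CPM per kb. Neighbours in this order were apart in every ovary except Bmpr1b and Bmp2, Bmp2 and Bmpr2, and Bmp4 and Bmp6, whose ranges overlapped. In Bnc1tr/tr ovaries the order of the means was the same but for Bmp6, which stood above Bmp4 at 9.03 ± 2.01 against 4.98 ± 1.20 CPM per kb.

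Between the genotypes, Bmp6 rose and Id1 fell. These were the 2 genes of the 10 that passed the test (edgeR quasi-likelihood test, Benjamini-Hochberg adjusted p under 0.05 over all 19423 genes tested), where 7.06% of all genes tested did. All 10 genes passed the filter on low counts. The genotypes did not overlap for 3 of the 10 genes, Bmp6, Id1 and Id2, where 30.8% of all genes tested did not overlap. The median log2 fold change over the 10 genes was 0.22, against 0.02 over all genes tested. Without Bnc1tr/tr replicate 1 it was -0.07, against 0.01 over all genes tested.

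**Figure D1:**
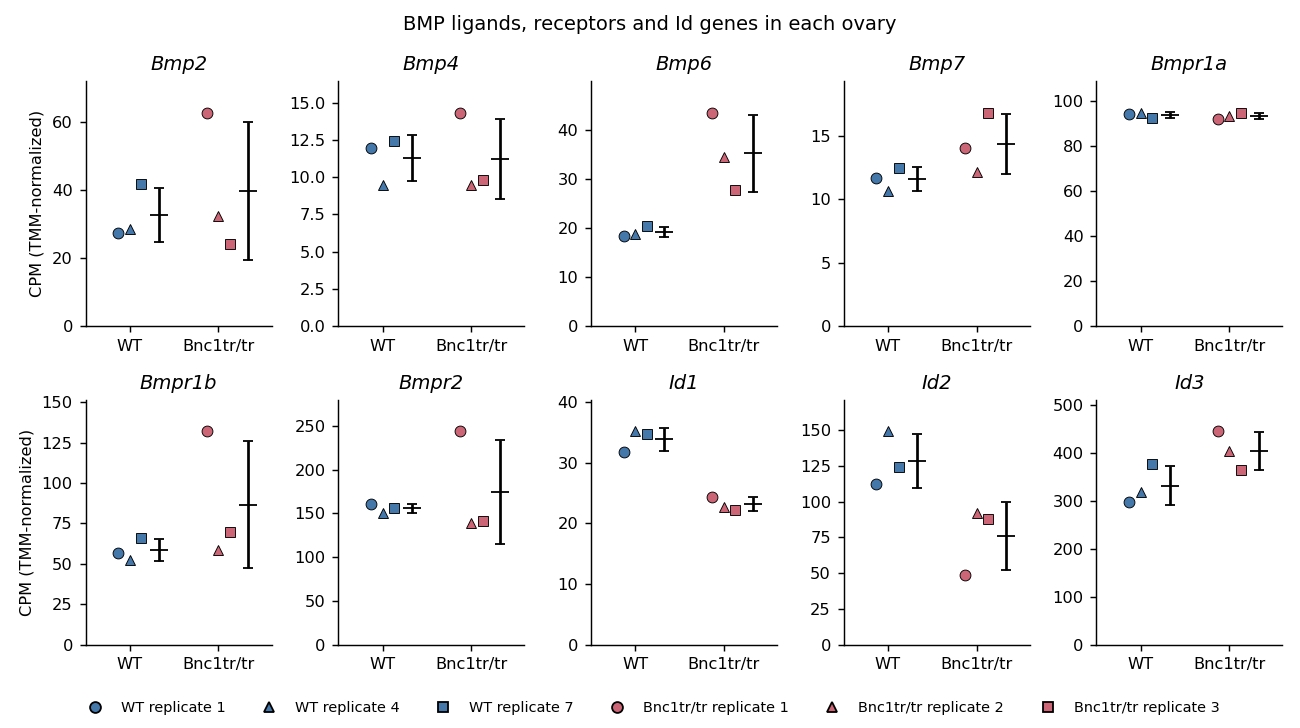
Level of each of the 10 genes in each ovary, in TMM-normalized CPM on axes that start at 0; points are ovaries and bars are mean ± SD of 3. Bmp6 lies between 18.3 and 20.4 CPM in WT and between 27.8 and 43.4 CPM in Bnc1tr/tr ovaries, and Bnc1tr/tr replicate 1 stands far above the others for Bmp2, Bmpr1b and Bmpr2.

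Bmp6, a ligand made in the ovary by oocytes and granulosa cells, was at 18.3, 18.8 and 20.4 CPM in WT replicates 1, 4 and 7 and at 43.4, 34.5 and 27.8 CPM in Bnc1tr/tr replicates 1, 2 and 3. Every Bnc1tr/tr ovary was above every WT ovary, and the Bnc1tr/tr ovaries were spread more widely. Bmp6 was 1.84-fold higher in Bnc1tr/tr ovaries (log2 fold change 0.88, SE 0.16, 95% interval 0.51 to 1.25, edgeR adjusted p = 0.0203), and it was the 1 gene of the 10 called higher, where 2.88% of all genes tested were. Without WT replicate 1, 4 or 7 its edgeR adjusted p was 0.0672, 0.109 and 0.0677, and its log2 fold change ranged from 0.70 to 1.02 over ovaries left out.

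Bmp6 lies on chromosome 13 (38345107 to 38500302, plus strand, GRCm38). In the GENCODE M21 annotation 224 of its exon bases, or 5.74%, are shared with Txndc5, a gene for a protein disulfide isomerase of the endoplasmic reticulum that runs towards it on the other strand. Txndc5 had 11164 to 15473 counts per ovary. Whether counting used strand is not given in the sources used here, so reads from the shared bases cannot be told apart. Txndc5 had a log2 fold change of 0.26 (edgeR unadjusted p = 0.0283, edgeR adjusted p = 0.151), and every Bnc1tr/tr ovary was above every WT ovary. Bmp6 counts were 4.42%, 4.33% and 5.10% of Txndc5 counts in WT ovaries. They were 7.89%, 7.64% and 5.58% in Bnc1tr/tr ovaries. This share, whose numerator is the gene already called, did not overlap between the genotypes either.

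Bmp2, a ligand of granulosa cells, was at 27.6, 28.7 and 41.8 CPM in WT ovaries and at 62.8, 32.3 and 24.0 CPM in Bnc1tr/tr ovaries, in the same order of replicates. Bnc1tr/tr replicates 1 and 3 were the highest and the lowest of the 6, and the genotypes overlapped. Its log2 fold change was 0.28 (SE 0.34, 95% interval -0.51 to 1.07, edgeR adjusted p = 0.658), and it was -0.22 without Bnc1tr/tr replicate 1.

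Bmp4, which theca cells make, was at 11.9, 9.49 and 12.4 CPM in WT and at 14.3, 9.47 and 9.83 CPM in Bnc1tr/tr ovaries. The genotypes overlapped, with a log2 fold change of -0.01 (95% interval -0.46 to 0.44, edgeR adjusted p = 0.984). Bmp7, also a theca cell ligand, was at 11.7, 10.6 and 12.5 CPM in WT and at 14.1, 12.1 and 16.8 CPM in Bnc1tr/tr ovaries. Bnc1tr/tr replicate 2 lay within the WT range, and the log2 fold change was 0.31 (SE 0.15, 95% interval -0.03 to 0.65, edgeR adjusted p = 0.247).

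Bmp6 also took a larger part of the 4 ligands' summed CPM per kb. It made up 22.7%, 24.4% and 20.4% of that sum in WT ovaries and 28.8%, 35.1% and 31.7% in Bnc1tr/tr ovaries. Bmp2 made up 37.5%, 40.9% and 45.9% in WT and 45.7%, 36.2% and 30.1% in Bnc1tr/tr ovaries. The genotypes overlapped in the share of Bmp2 and did not overlap in that of Bmp6, the gene already called.

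None of the 3 receptors passed the test in edgeR, in DESeq2 or in limma-voom, and none had an unadjusted p under 0.05 in edgeR. Bmpr1a, a type I receptor found in many tissues, was at 94.4, 94.5 and 92.4 CPM in WT and at 92.0, 93.2 and 94.7 CPM in Bnc1tr/tr ovaries. The 6 ovaries were nearly level, with a log2 fold change of -0.01 and a 95% interval of -0.17 to 0.15 (edgeR adjusted p = 0.964).

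Bmpr1b, the type I receptor that granulosa cells need for cumulus expansion, was at 56.5, 52.6 and 66.1 CPM in WT and at 131.9, 58.6 and 69.5 CPM in Bnc1tr/tr ovaries. Bnc1tr/tr replicate 1 stood far above the other 5 ovaries, among which the genotypes overlapped. The log2 fold change was 0.57 (SE 0.28, 95% interval -0.08 to 1.22, edgeR adjusted p = 0.262), and 0.13 without that ovary. Bmpr2, a type II receptor for these ligands, was at 160.4, 150.1 and 156.1 CPM in WT and at 243.5, 139.2 and 140.8 CPM in Bnc1tr/tr ovaries. Bnc1tr/tr replicate 1 was again the highest, and the other 2 Bnc1tr/tr ovaries were below every WT ovary. The log2 fold change was 0.17 (SE 0.21, 95% interval -0.32 to 0.65, edgeR adjusted p = 0.672) and turned to -0.15 without Bnc1tr/tr replicate 1.

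Within each ovary, the ratio of Bmpr1b to Bmpr1a per kb does not depend on how libraries are scaled. It was 0.638, 0.593 and 0.762 in WT and 1.53, 0.670 and 0.781 in Bnc1tr/tr ovaries. Bmpr1b exceeded Bmpr1a in Bnc1tr/tr replicate 1 alone among the 6 ovaries. The mean log2 ratio was 0.49 higher in Bnc1tr/tr ovaries (two-sided exact permutation test, p = 0.2, n = 3 against 3, where 0.1 is the smallest p possible), and 0.13 higher without Bnc1tr/tr replicate 1.

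**Figure D2:**
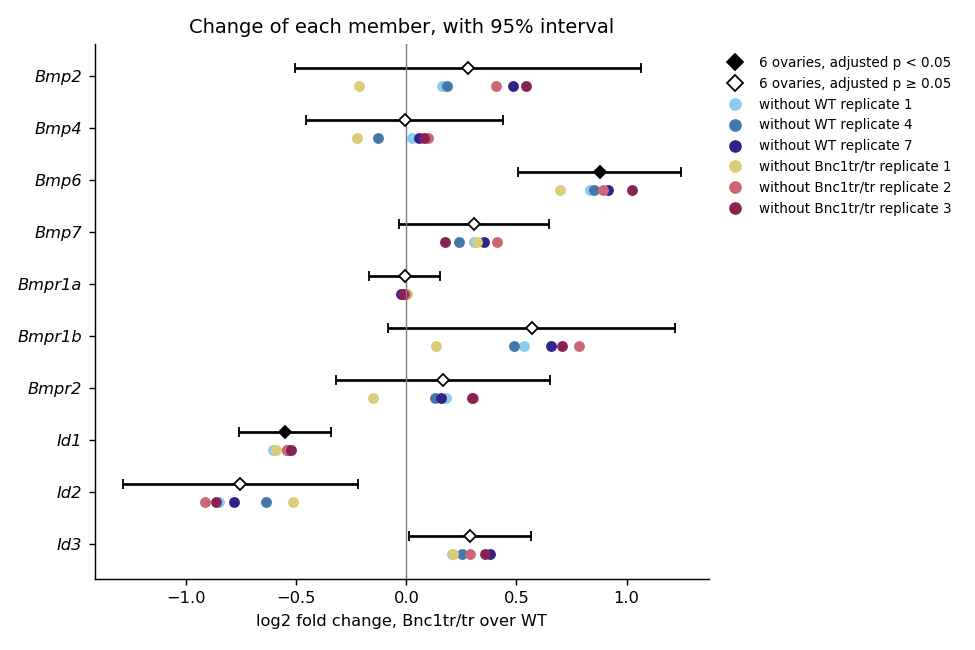
Log2 fold change of each gene, Bnc1tr/tr over WT; diamonds with bars are the 6-ovary estimate and its 95% interval, and circles are the estimates with 1 ovary left out. Leaving out Bnc1tr/tr replicate 1 moves Bmpr1b from 0.57 to 0.13 and takes Bmp2 and Bmpr2 below 0, while the circles of Id1 stay between -0.61 and -0.52.

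The 3 Id genes, read as targets of the pathway, did not move together. Id1, which is induced early by BMPs and is prominent in endothelial cells, was at 31.8, 35.2 and 34.8 CPM in WT ovaries and at 24.4, 22.8 and 22.2 CPM in Bnc1tr/tr ovaries. Every Bnc1tr/tr ovary was below every WT ovary, with little spread in either genotype. Id1 fell by 0.55 on the log2 scale (SE 0.09, 95% interval -0.76 to -0.34, edgeR adjusted p = 0.0134), a fold of 0.682, and was the 1 gene of the 10 called lower, where 4.19% of all genes tested were. It is a gene of 1160 exon bases on chromosome 2 (152736251 to 152737410, plus strand). Its edgeR adjusted p was 0.0754 without WT replicate 4, 0.0528 without WT replicate 7 and 0.0561 without Bnc1tr/tr replicate 3.

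Id2, a paralog of Id1 known for its part in lymphoid and fat cell development, was at 112.4, 149.3 and 124.4 CPM in WT and at 49.0, 92.2 and 87.7 CPM in Bnc1tr/tr ovaries. Every Bnc1tr/tr ovary was below every WT ovary, and Bnc1tr/tr replicate 1 was the lowest. The difference was the largest of the 3 Id genes in size but missed the threshold, with a log2 fold change of -0.75 (SE 0.23, 95% interval -1.29 to -0.22, edgeR adjusted p = 0.0938). DESeq2 gave it an adjusted p of 0.0113, and limma-voom 0.0862.

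Id3, which is co-expressed with Id1 in vessels and the nervous system, was at 298.0, 319.5 and 376.9 CPM in WT and at 445.3, 404.0 and 365.0 CPM in Bnc1tr/tr ovaries. Its values leaned the other way from those of Id1 and Id2, but Bnc1tr/tr replicate 3 lay within the WT range. The log2 fold change was 0.29 (SE 0.12, 95% interval 0.01 to 0.56, edgeR adjusted p = 0.19). Of the 3 Id genes' summed CPM per kb, Id3 made up 69.4%, 66.1% and 72.2% in WT and 85.8%, 79.7% and 78.7% in Bnc1tr/tr ovaries, which did not overlap. This share also rises where Id1 and Id2 are lower, and the level of Id3 itself overlapped. The sum of the 3 genes was 239.9, 270.0 and 291.5 CPM per kb in WT and 289.8, 283.0 and 258.9 CPM per kb in Bnc1tr/tr ovaries, which overlapped.

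The genes whose pattern over the 6 ovaries was nearest to that of Bmp6 were Rpl36-ps3 and Rab11fip1, with root mean square differences of 0.0962 and 0.109 in mean-centred log2 CPM, out of 11408 genes compared. Rpl36-ps3 is a ribosomal protein pseudogene whose reads may come from its parent gene. Nearest to Id1 were Fmnl2, a formin that builds actin filaments, and Cyfip1, a member of the actin-regulating WAVE complex, with root mean square differences of 0.033 and 0.0407. These genes were taken from the whole table for their likeness alone.

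Of the other BMP pathway genes listed, 53 of 61 passed the filter on low counts and 6 passed the test, 3 of them higher and 3 lower, where 7.06% of all genes tested passed (2.88% higher and 4.19% lower). The median log2 fold change of the 53 was 0.05. Smad1, Sost and Tll2 passed the threshold under every alternative that could be fitted to them, whereas Bmp15 passed in 8 of 13, Gdf9 in 7 of 13 and Gdf7 in 9 of 12. With single ovaries left out, Bmp15 and Gdf9 missed the threshold without any one WT ovary or without Bnc1tr/tr replicate 3, Gdf9 also without Bnc1tr/tr replicate 1, and Gdf7 without WT replicate 4 or 7. Their largest adjusted p over all alternatives was 0.115, 0.172 and 0.0954.

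Smad1, a transcription factor that BMP type I receptors phosphorylate, was at 76.2, 84.2 and 91.9 CPM in WT and at 42.9, 41.7 and 44.5 CPM in Bnc1tr/tr ovaries. It fell to a fold of 0.512 (log2 fold change -0.97, SE 0.09, 95% interval -1.18 to -0.75, edgeR adjusted p = 0.0023), with no overlap. Its closest relatives Smad5 and Smad9 and the shared partner Smad4 did not pass the test, with log2 fold changes of -0.08, -0.46 and 0.08. Per kb, Smad1 was at 13.4 ± 1.25 and Smad5 at 15.8 ± 1.71 CPM per kb in WT ovaries. In Bnc1tr/tr ovaries Smad1 ranged from 6.65 to 7.10 CPM per kb, below every value of Smad5, which ranged from 14.6 to 15.3 CPM per kb.

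Among the other ligands, 2 rose and 1 fell of the 5 tested, where 2.88% of all genes tested were higher and 4.19% lower. The filter on low counts kept these 5 of the 11 ligands listed. Bmp15, a ligand made by oocytes, was at 30.6, 29.2 and 25.9 CPM in WT and at 66.9, 41.4 and 54.5 CPM in Bnc1tr/tr ovaries, a 1.90-fold rise (log2 fold change 0.93, SE 0.17, edgeR adjusted p = 0.0204). Gdf9, its oocyte partner, was at 193.3, 177.1 and 140.2 CPM in WT and at 339.5, 220.1 and 316.7 CPM in Bnc1tr/tr ovaries, a 1.72-fold rise (log2 fold change 0.78, SE 0.18, edgeR adjusted p = 0.0458). Neither overlapped between the genotypes, and both rank the Bnc1tr/tr ovaries differently from Bmp6, with replicate 2 the lowest. Gdf7, a ligand known from the dorsal spinal cord, fell by 2.48 on the log2 scale (SE 0.39, edgeR adjusted p = 0.0118) but rested on 21 to 25 counts in each WT and 2 to 5 in each Bnc1tr/tr ovary.

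Of 15 extracellular antagonists and modulators tested, 1 rose and 14 did not pass the test, where 2.88% of all genes tested were higher. Sost, which encodes sclerostin, an inhibitor known mostly from bone and from the Wnt pathway, had 9, 17 and 18 counts in WT and 168, 75 and 135 counts in Bnc1tr/tr ovaries. The groups were far apart, with a log2 fold change of 3.20 (SE 0.37, edgeR adjusted p = 0.00406) from a low level in WT. Twsg1, a BMP binding protein that works with chordin, was at 185.5 ± 18.9 CPM in WT and 210.6 ± 8.71 CPM in Bnc1tr/tr ovaries (log2 fold change 0.18, edgeR adjusted p = 0.291).

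Of 6 proteases that process ligands or chordin, 1 fell and 5 did not pass the test, where 4.19% of all genes tested were lower. Tll2, a tolloid-like metalloprotease, was at 10.4, 15.9 and 25.3 CPM in WT and at 2.56, 1.69 and 2.40 CPM in Bnc1tr/tr ovaries, a fold of 0.129 (log2 fold change -2.95, SE 0.34, edgeR adjusted p = 0.0043). Bmp1, a protease of the same family despite its name, had a log2 fold change of 0.01 (edgeR adjusted p = 0.98).

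None of the 9 other receptors and co-receptors, the 7 intracellular inhibitors, the 4 other BMP-induced genes or the 3 E proteins passed the test in edgeR or in limma-voom. At an unadjusted edgeR p under 0.05 there were 4 receptors and co-receptors, 5 inhibitors, 0 BMP-induced genes and 0 E proteins, where 24.2% of all genes tested had such a p. DESeq2 called 3 of the receptors and co-receptors (Rgma, Eng and Tgfbr3) and 3 of the inhibitors (Smad6, Ski and Skil). Eng, a co-receptor of endothelial cells, was at 224.7, 284.1 and 329.8 CPM in WT and at 168.2, 199.3 and 187.0 CPM in Bnc1tr/tr ovaries, with an edgeR adjusted p of 0.0501. Ski, a corepressor of SMADs, had a log2 fold change of 0.38 (edgeR adjusted p = 0.108), and Atoh8, a BMP-induced transcription factor, one of 0.39 (edgeR adjusted p = 0.22). Tcf3, an E protein bound by ID proteins, was at 171.5 ± 6.54 and 171.6 ± 9.30 CPM.

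**Figure D3:**
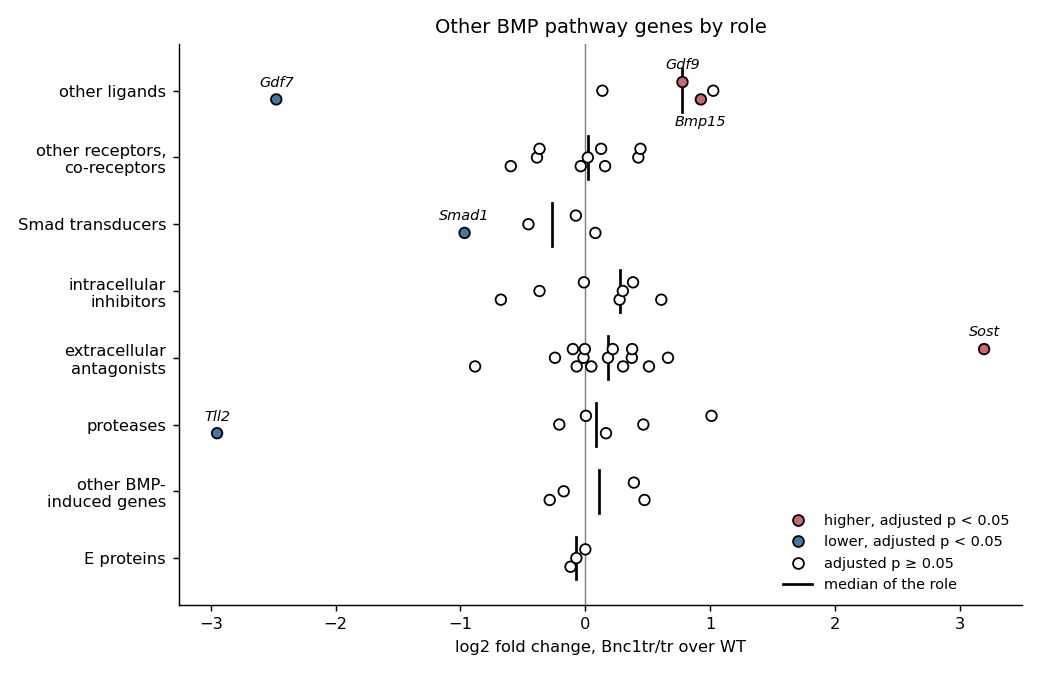
Log2 fold change (Bnc1tr/tr over WT) of the 53 other pathway genes tested, by role; circles are genes, filled where the edgeR adjusted p is under 0.05, and lines are role medians. The 6 filled genes include Sost at 3.20 and Tll2 at -2.95, and the 3 E proteins lie close to 0.

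Markers of several ovarian cell types moved with the genotype. Over all genes tested, 2.88% were called higher and 4.19% lower, the shares to set beside the marker counts here and below. Luteal markers (8 genes) summed to 20340 to 23700 CPM in WT and 6337 to 11750 CPM in Bnc1tr/tr ovaries, and Cyp11a1 and Hsd3b1 made up most of that sum. Of the 8 luteal genes 6 fell, while Akr1c18 and Parm1 overlapped between the genotypes. Endothelial markers (9 genes) summed to 697.2 to 908.5 CPM in WT and 504.7 to 601.9 CPM in Bnc1tr/tr ovaries. Of these, 4 fell (Pecam1, Cdh5, Kdr and Tek) and Vwf rose, with 7 negative and 2 positive log2 fold changes. Plvap was also above every WT ovary in all 3 Bnc1tr/tr ovaries (log2 fold change 0.58, edgeR adjusted p = 0.0903). Emcn and Cldn5 overlapped between the genotypes. Pericyte and smooth muscle markers (8 genes) summed to 1974 to 2152 CPM in WT and 1932 to 2112 CPM in Bnc1tr/tr ovaries, which overlapped. Of the 8, 2 fell, Notch3 (log2 fold change -1.24, edgeR adjusted p = 0.0059) and Pdgfrb (log2 fold change -0.66, edgeR adjusted p = 0.0191). The list was split, with 4 positive and 4 negative log2 fold changes. Des was above every WT ovary in all 3 Bnc1tr/tr ovaries (log2 fold change 0.69, edgeR adjusted p = 0.124). Id1, Smad1, Eng, Notch3, Pdgfrb and the luteal and endothelial sums were all lower in every Bnc1tr/tr ovary than in any WT ovary. So were 3065 of the 19423 genes tested, and a link between these genes and the cell types was not tested. Of the ovaries, Bnc1tr/tr replicate 1 had the lowest luteal sum and the lowest Id2.

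Oocyte markers (9 genes) summed to 505.4 to 662.7 CPM in WT and to 960.3, 630.0 and 965.3 CPM in Bnc1tr/tr ovaries. That list holds Bmp15 and Gdf9, and without them the sums were 438.8, 418.9 and 339.3 CPM in WT and 553.9, 368.5 and 594.1 CPM in Bnc1tr/tr ovaries, with replicate 2 within the WT range and 1 of the 7 genes called higher. Granulosa markers (8 genes) summed to 3613 to 4395 CPM in WT and to 6296, 3873 and 5268 CPM in Bnc1tr/tr ovaries, and Bnc1tr/tr replicate 1 was highest there as it was for Bmp2, Bmpr1b and Bmpr2. Inha made up most of that sum, and 2 of the 8 genes rose, Amh (2.09-fold, edgeR adjusted p = 0.0294) and Amhr2 (1.53-fold, edgeR adjusted p = 0.00589), each above every WT ovary in all 3 Bnc1tr/tr ovaries. The list was split, with a negative log2 fold change for 3 of the 8 genes. Foxl2 was below every WT ovary in all 3 Bnc1tr/tr ovaries (log2 fold change -0.29, edgeR adjusted p = 0.127). Bmp6 was above its WT range in Bnc1tr/tr replicate 2. There the oocyte and the granulosa sum lay within their WT ranges, Amh and Amhr2 above theirs and Foxl2 below its own.

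Adipocyte markers (6 genes) summed to 16.5 to 91.5 CPM in WT and to 337.4, 250.1 and 35.4 CPM in Bnc1tr/tr ovaries, the order in which Bmp6 ranked those 3 ovaries, and 1 of the 6 genes rose. In Bnc1tr/tr replicate 3 the adipocyte sum lay within the WT range, but Plin1, the gene that rose, did not. Plin1 was at 15.5 CPM there and at 8.92, 9.58 and 12.7 CPM in WT replicates 1, 4 and 7. Bmp6 was at 27.8 CPM in that Bnc1tr/tr ovary, above every WT ovary. Oviduct markers (9 genes) summed to 880.5 CPM in Bnc1tr/tr replicate 3 and to 439.0 CPM in WT replicate 1, the highest of each genotype. Tubb4b, at 252.9 to 388.2 CPM over the ovaries, made up much of each sum. The median over the 9 markers of log2 CPM (plus 0.5) over the WT mean weighs each gene alike. It lay from -1.11 to -0.78 in the other ovaries, at 0.92 in WT replicate 1 and at 1.65 in Bnc1tr/tr replicate 3. Without both of these ovaries Bmp6 kept an edgeR adjusted p of 0.0499 and a log2 fold change of 0.98, and Id1 had an adjusted p of 0.103 and a log2 fold change of -0.58. No marker of these lists was at 0 counts in all 6 ovaries. The part of these cell types in the changes of Bmp6, Id1 and Smad1 was not tested.

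**Figure D4:**
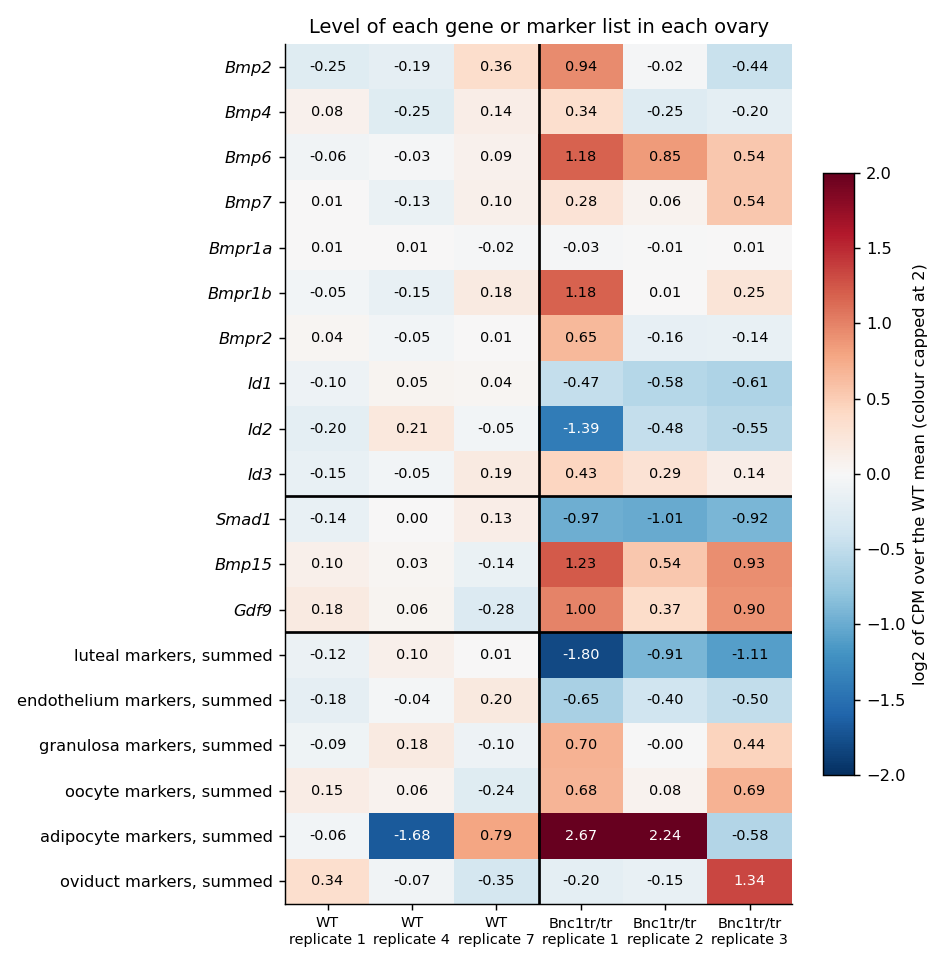
Log2 of the CPM over the WT mean in each ovary for the 10 genes, 3 other pathway genes and the summed markers of 6 cell types; red is higher, blue is lower, and colour is capped at 2. Smad1, Id1 and the luteal and endothelial sums are below the WT mean in all 3 Bnc1tr/tr ovaries. Within the rows of Bmp6 (1.18), Bmpr1b (1.18) and Id2 (-1.39), among others, Bnc1tr/tr replicate 1 has the strongest colour of the ovaries.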

How the data were processed

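Total RNA of 6 whole ovaries was extracted by the authors with TRIzol, made into single-end Ion Total RNA-Seq libraries and sequenced on an Ion Proton instrument. The authors deposited raw counts, which are whole numbers of reads per gene symbol without normalization. The labels name the build mm10, and also Sscrofa10.2 with no role. The aligner, counter, annotation and strand setting are not given in the sources used here.

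Counts were filtered with filterByExpr (minimum count 10), which kept 19423 of 31717 genes with a count, normalized by TMM and compared with edgeR 4.0.16 (quasi-likelihood test, two-sided, R 4.3.3), with Benjamini-Hochberg adjustment over all genes tested and a threshold of 0.05. SE is the log2 fold change divided by the root of the F statistic. The pipeline was tested on simulated data. Replicates were compared pairwise, and no pair agreed within sampling noise (chi-square per degree of freedom 17.0 to 64.4). CPM per kb used the merged exons of GENCODE M21 (GRCm38). Intervals and floors of 3 counts cover error in these ovaries only.

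The 10 genes, the pathway and marker lists and the tests were chosen with earlier results of these data known. Named are the 10 genes, the other pathway genes past the threshold and, for each role, the one with the highest mean CPM, the 2 genes nearest in pattern to each called member among genes with a mean of at least 10 CPM (log2 CPM with prior count 2), and Bnc1. Smad5, Smad9, Txndc5, the genes called by DESeq2 alone and single markers were named after their values were seen. The 3 list symbols absent under their current names were matched through RefSeq synonyms. Alternatives were DESeq2 1.42.0, limma-voom (limma 3.58.1), other scalings and filters, a threshold of 0.1, and each ovary left out. The summed CPM of the remaining marker lists lay, over the 6 ovaries, at 1624 to 2684 for theca, 1957 to 2899 for stroma, 263.5 to 385.1 for surface epithelium, 232.2 to 440.3 for macrophages, 3.53 to 5.76 for T and B cells and 61.4 to 226.0 for erythroid cells. The oocyte data of the paper were not analysed here.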

Additional observations from a re-analysis of the deposited data

How the results depend on the processing

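With 1 ovary left out in turn, 0 to 2 of the 10 genes, 3 to 7 of the other pathway genes and 320 to 1282 of all genes passed the threshold. None of the 10 passed in edgeR without WT replicate 4, where 2 had an unadjusted p under 0.05, or without WT replicate 7, where 4 had; Id1 alone passed without WT replicate 1 and Bmp6 alone without Bnc1tr/tr replicate 3. Without both WT replicate 1 and Bnc1tr/tr replicate 3, an alternative chosen after seeing the data, the counts were 1, 3 and 304. DESeq2 called 3 of the 10, 14 of the pathway genes and 2420 of all genes, and at an adjusted p under 0.1 the counts were 3, 12 and 2554. Bmp6 kept its direction in all 13 alternatives and passed in 10, with log2 fold changes from 0.70 to 1.02 and adjusted p up to 0.109. Id1 kept its direction in all 13 and passed in 9, from -0.61 to -0.45 and with adjusted p up to 0.103. Scaling by library size turned Bmp4 to 0.0905 and Bmpr1a to 0.0927. Over ovaries left out, Bmp2 ranged from -0.22 to 0.54, Bmp4 from -0.22 to 0.10 (0.11 without the pair), Bmpr1a from -0.0262 to 0.0025 and Bmpr2 from -0.15 to 0.30 (0.31 without the pair); none of these passed. The mean log2 ratio of Bmpr1b to Bmpr1a ranged from 0.13 to 0.73. Fewer ovaries give a test less power, and beyond that the cause of these shifts was not tested. The paper states that its comparisons were between littermates. The labels do not say which ovaries came from the same litter, so no paired analysis was possible. Gdf7 had 2 to 5 counts in each Bnc1tr/tr ovary and Sost 9 to 18 in each WT ovary, so their fold changes rest on few reads in that genotype.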
